A study of Homo sapiens with 5 samples.

Results

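The myogenic regulatory factors and the MEF2 transcription factors were followed in RH4 cells, an established line of alveolar rhabdomyosarcoma, after an siRNA against the circular RNA circVAMP3. The 9 genes were taken by symbol: MYOD1, MYOG, MYF5 and MYF6, the MEF2 genes MEF2A, MEF2C and MEF2D, and the partner factors SIX4 and TCF12. Of these 9 genes, 7 had a row among the 13822 genes of the table, and all 7 passed the filter on low values. MYF5 and MYF6 had no row in the table used here.

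All cells received 30 nM of siRNA, were given new medium after 24 h and were collected 24 h later. A control siRNA (si-SCR) was used for 3 libraries and the siRNA against the circVAMP3 junction (si-circVAMP3) for 2, described in the study's methods as biological replicates. RNA was selected by its poly-A tail, so the circle itself was not measured and the VAMP3 row holds linear mRNA. One siRNA and a single cell line limit what the comparison covers. Levels are given as FPKM, read pairs scaled by gene length and by the size of the library. The whole counts behind them could be recovered, with totals of 25955721, 24593485 and 24488513 read pairs in si-SCR 1, 2 and 3 and 18289984 and 28293903 in si-circVAMP3 1 and 2.

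The siRNA is shown because it sets the comparison. Of its 21 bases, 19 match the junction that joins the end of VAMP3 exon 4 (GRCh38 chr1:7778118-7778169, plus strand) to the start of exon 3 (chr1:7777160-7777318), and the last 2 are an overhang. The first 8 bases lie in exon 4 and the next 11, in capitals, in exon 3.
si-circVAMP3: caucaucgGUGGUGGACAUuu
The 19 bases were in none of the 3 annotated linear VAMP3 transcripts, and the circle of exons 3 and 4 spans 211 bases.

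Myogenic regulatory factors are basic helix-loop-helix proteins that pair with E proteins such as TCF12 and bind E-box motifs of muscle genes. MYOD1 and MYF5 act in the choice of the muscle lineage, and MYOG acts later, when myoblasts leave the cycle and fuse. MEF2 proteins bind AT-rich sites beside them, SIX4 and its relatives bind the MEF3 motif, and rhabdomyosarcoma cells are known to express MYOD1 and MYOG without completing differentiation.

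Markers of the line were present. All 14 genes listed for alveolar rhabdomyosarcoma had a row, led by the intermediate filament gene DES, and their summed level was 734, 713 and 621 FPKM in the si-SCR libraries and 607 and 612 FPKM in the si-circVAMP3 libraries. Markers of leukocytes (PTPRC, CD68, LYZ and CD3E), epithelium (EPCAM, CDH1, KRT5 and KRT18) and neural or glial cells (NEFL, GFAP and SOX10) had no row. Of 5 endothelial markers, 1 had a row, PECAM1, at 0.0777 to 0.153 FPKM, and of 4 smooth muscle markers 3 had a row, led by TAGLN at a mean of 0.857 FPKM, with sums from 0.93 to 1.08 FPKM. The fibroblast list had 4 of 7 genes in the table (COL1A2, LUM and THY1 had none), nearly all of its sum being COL3A1, a collagen gene. That sum was 35.5, 32.8 and 33.3 FPKM with si-SCR and 31.1 and 28.6 FPKM with si-circVAMP3. None of its genes passed the test given below, and its part in the results was not tested.

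The libraries of a group lay closer to each other than to the other group. Over 11094 genes, the median absolute log2 difference was 0.07 between si-SCR 1 and 2 and 0.07 between the si-circVAMP3 libraries. The third control stood somewhat apart, at 0.11 from si-SCR 1 and 0.09 from si-SCR 2, against 0.17 to 0.19 for pairs across groups.

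VAMP3, the host gene (GRCh38 chr1:7771296-7781432, plus strand), was measured first. Its level was 36.4, 35.4 and 37.4 FPKM in si-SCR 1, 2 and 3, and 29.4 and 30.2 FPKM in si-circVAMP3 1 and 2. Both si-circVAMP3 libraries were below all the controls. In a limma fit across the 13681 genes with a mean of at least 0.1 FPKM, on the log2(FPKM + 0.1) scale, VAMP3 mRNA fell by 0.29 (SE 0.044, adjusted p = 0.0051). Without si-circVAMP3 1 the log2 difference was -0.27 and the adjusted p 0.052.

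Among the muscle regulators themselves, MYOG was the most abundant gene with the control siRNA and fell to 59.0% of that level, while MYOD1, its close relative, did not pass the test. TCF12, an E protein, fell by a small amount, and the MEF2 genes and SIX4 did not pass. The 2 of 7 genes past an adjusted p of 0.05 make 28.6%, close to the 27.5% of all genes tested (3767 of 13681). Both were lower with si-circVAMP3, where 14.7% of all genes were lower and 12.8% higher, and the median log2 difference of the 7 genes was -0.12 against 0.003 over all genes tested. The balance over all genes turned with the scaling. With libraries centred on their medians 1811 genes passed as lower and 2022 as higher, against 2009 and 1758 in the main fit. Only MYOG also exceeded a log2 difference of 0.58, which 5.80% of all genes did. In 5 of the 7 genes the FPKM ranges of the groups did not overlap, as was so for 56.6% of all genes tested.

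**Figure D1:**
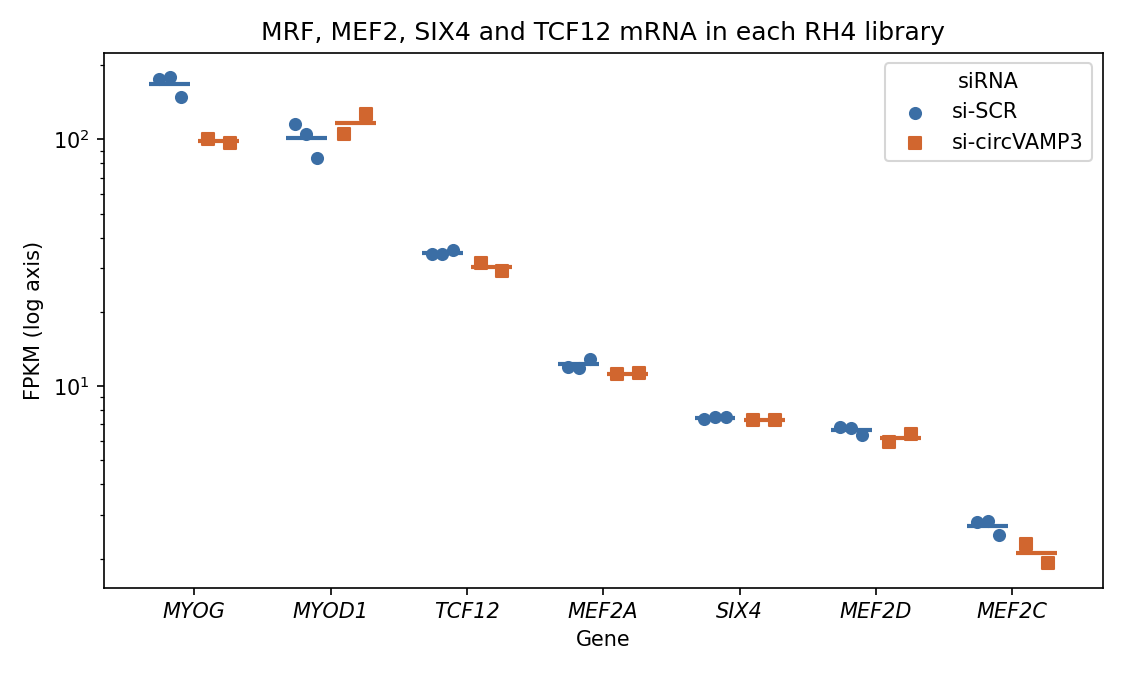
FPKM (log axis) of the 7 genes in each library, with si-SCR as circles (n = 3) and si-circVAMP3 as squares (n = 2); short lines are group means. MYOG drops from a mean of 168 to 98.6 FPKM and MYOD1 has the higher mean of the pair with si-circVAMP3, while the places of the other 5 genes are the same in both groups.

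MYOG, which drives terminal muscle differentiation (ENSG00000122180, GRCh38 chr1:203083129-203086012, minus strand), stood at 175, 179 and 149 FPKM in si-SCR 1, 2 and 3. It stood at 101 and 96.6 FPKM in si-circVAMP3 1 and 2. Even si-SCR 3, the lowest control, was far above both si-circVAMP3 libraries, so the groups did not overlap. Group means were 168 ± 16.2 FPKM (SD, n = 3) and 98.6 ± 2.89 FPKM (SD, n = 2). On the log2 scale MYOG fell by 0.76 (SE 0.081, 95% interval -0.95 to -0.57, limma adjusted p = 0.0016). These values rest on 2812 to 7051 read pairs per library. A difference this low or lower was found in 283 of the 13681 genes tested (2.07%), MYOG included. With the control siRNA 180 genes of the table were more abundant than MYOG, and with si-circVAMP3 361 were. Fewer cells expressing a gene and less RNA per cell cannot be told apart in these bulk libraries. MYOG passed the test in all 16 other settings tried, with adjusted p from 0.00017 to 0.023.

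The 250 bases before the MYOG start are shown because the motifs of 3 families of regulators described here lie in them. Of the 9 genes, 8 had a promoter entry in RefSeq (GRCh38.p14), and this one spans chr1:203086013-203086262, minus strand. Capitals mark, from left to right, a MEF3 motif (TCAGGTT), a MEF2-type motif (CTANNNNTA) and an E-box (CANNTG), searched on both strands.
MYOG promoter: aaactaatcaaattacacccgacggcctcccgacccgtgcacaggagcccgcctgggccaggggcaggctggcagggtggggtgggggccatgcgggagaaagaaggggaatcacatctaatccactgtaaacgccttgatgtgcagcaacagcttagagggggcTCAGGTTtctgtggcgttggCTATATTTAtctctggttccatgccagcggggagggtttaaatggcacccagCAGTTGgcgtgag
The MEF3 match lies 79 to 85 bases before the start, the MEF2-type match 57 to 65 bases and the E-box 8 to 13 bases, and the matches do not overlap. Over 34943 promoter windows of the same length, 2.8% held the MEF3 letters, 14.7% the MEF2-type letters and 61.8% an E-box. A match describes the letters alone, and binding was not measured in these libraries.

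MYOD1, which can set the muscle programme in other cell types (ENSG00000129152, GRCh38 chr11:17719571-17722136, plus strand), was at 115, 105.5 and 84.3 FPKM in si-SCR 1, 2 and 3. It was at 105.6 and 127 FPKM in si-circVAMP3 1 and 2. The groups overlapped, and the lowest level was that of si-SCR 3. The log2 difference was 0.20 (SE 0.136, 95% interval -0.13 to 0.52, limma adjusted p = 0.32). Leaving out single libraries gave 0.07 to 0.33, with 0.07 and an adjusted p of 0.59 without si-SCR 3.

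Within each library, MYOG and MYOD1 can be set against each other without regard to how libraries were scaled. The ratio of their FPKM, chosen after the values were seen, was 1.53, 1.69 and 1.77 in si-SCR 1, 2 and 3 and 0.953 and 0.763 in si-circVAMP3 1 and 2. MYOG mRNA was therefore the more abundant of the pair per length in every control library and the less abundant in both si-circVAMP3 libraries. The mean ratio went from 1.66 ± 0.124 (SD, n = 3) to 0.858 ± 0.134 (SD, n = 2), a log2 difference of -0.96. An exact two-sided permutation test gave p = 0.2, the smallest value that 3 against 2 libraries can give, so this test could not reach 0.05.

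**Figure D2:**
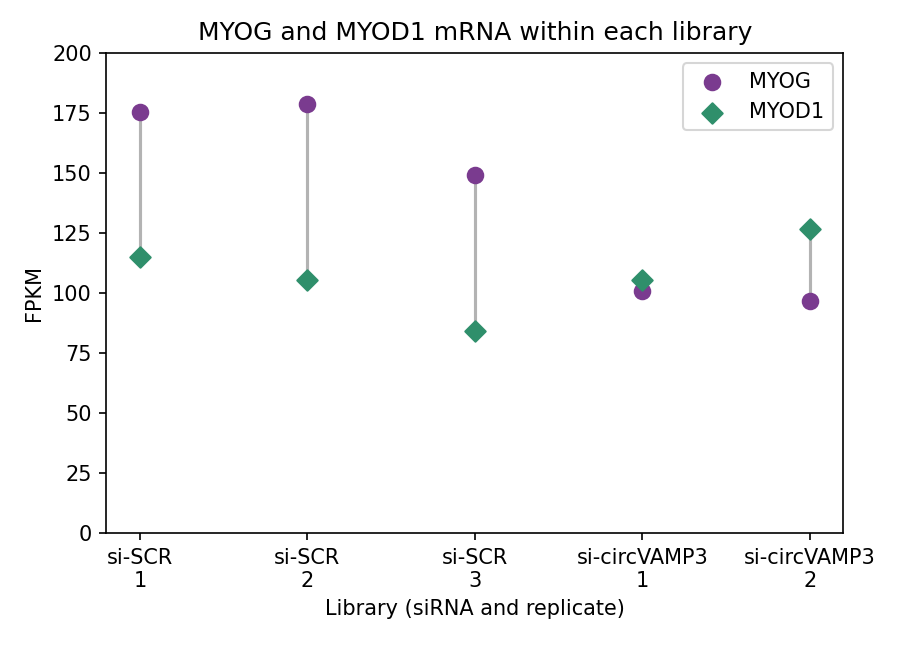
FPKM of MYOG (circles) and MYOD1 (diamonds) in each of the 5 libraries, joined by a line per library. MYOG is above MYOD1 in the 3 si-SCR libraries and below it in the 2 si-circVAMP3 libraries.

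MYF5 (GRCh38 chr12:80716912-80719671, plus strand) and MYF6 (chr12:80707634-80709474, plus strand), the other genes of the MRF family, lie next to each other. Neither was analysed here. The study's methods describe a filter that removed genes with few reads, and which genes it took out was not examined.

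The MEF2 genes were expressed well below MYOG and MYOD1. MEF2A (ENSG00000068305, GRCh38 chr15:99565417-99716488, plus strand) was at 11.97, 11.9 and 12.9 FPKM in si-SCR 1, 2 and 3 and at 11.2 and 11.3 FPKM in si-circVAMP3 1 and 2. Its si-circVAMP3 levels lay just below those of the controls, and the log2 difference of -0.12 (SE 0.057, adjusted p = 0.15) did not pass the test. MEF2D (ENSG00000116604, GRCh38 chr1:156463727-156500779, minus strand) was at 6.82, 6.79 and 6.34 FPKM with si-SCR and at 5.92 and 6.41 FPKM with si-circVAMP3. These ranges overlapped through si-SCR 3, and the log2 difference was -0.11 (SE 0.068, adjusted p = 0.28). Leaving out single libraries gave MEF2D differences from -0.16 to -0.05.

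MEF2C, a MEF2 gene of developing skeletal and heart muscle (ENSG00000081189, GRCh38 chr5:88717117-88904257, minus strand), was the least abundant of the 7 genes. Its level was 2.8, 2.84 and 2.5 FPKM in si-SCR 1, 2 and 3 and 2.3 and 1.91 FPKM in si-circVAMP3 1 and 2, from 500 to 879 read pairs per library. Both si-circVAMP3 libraries lay below the controls. The log2 difference was -0.35 (SE 0.11, 95% interval -0.61 to -0.09), just outside the threshold at an adjusted p of 0.053. Without si-SCR 3 it was -0.41 and passed at an adjusted p of 0.034, and without si-circVAMP3 2 it was -0.23 with an adjusted p of 0.28. Across the 16 other settings it passed in 5.

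Added together, the MEF2 genes gave 21.6, 21.5 and 21.8 FPKM in si-SCR 1, 2 and 3 and 19.4 and 19.6 FPKM in si-circVAMP3 1 and 2. The sum was lower in both si-circVAMP3 libraries by more than its spread within either group. MEF2A made up 55.3% to 59.4% of it, MEF2D 29.1% to 32.7% and MEF2C 9.77% to 13.2% over the 5 libraries. The sum and shares were chosen after the values were seen and are given as a description.

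SIX4, a homeodomain factor that acts upstream of and beside the MRF genes (ENSG00000100625, GRCh38 chr14:60709539-60724351, minus strand), was the steadiest of the 7. It was at 7.38, 7.48 and 7.53 FPKM in si-SCR 1, 2 and 3 and at 7.32 and 7.28 FPKM in si-circVAMP3 1 and 2. The groups were separated by a narrow gap, and the log2 difference of -0.03 (SE 0.053, 95% interval -0.16 to 0.09, adjusted p = 0.69) was within the error.

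TCF12, the E protein with which MRF proteins can pair (ENSG00000140262, GRCh38 chr15:56918623-57299281, plus strand), was at 34.3, 34.4 and 35.6 FPKM in si-SCR 1, 2 and 3. It was at 31.5 and 29.2 FPKM in si-circVAMP3 1 and 2. The groups did not overlap, and the counts behind them, 5515 to 8647 read pairs, were the highest among the 7 genes. TCF12 fell by 0.20 on the log2 scale (SE 0.048, 95% interval -0.31 to -0.08, limma adjusted p = 0.027), to 87.3% of the control level. The call was lost with eBayes without trend (adjusted p = 0.077), without si-SCR 2 (0.073), without si-circVAMP3 1 (0.056) and without si-circVAMP3 2 (0.17), and in 11 of the 16 other settings it was kept.

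**Figure D3:**
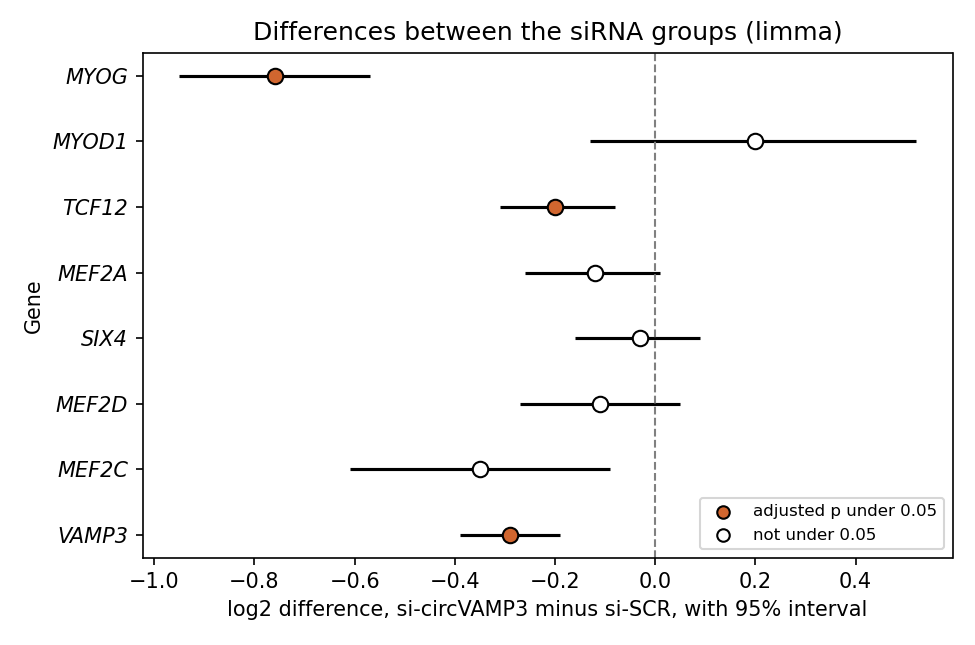
Log2 difference between si-circVAMP3 (n = 2) and si-SCR (n = 3) with its 95% interval from limma, for the 7 genes in order of control level and for VAMP3; filled points have an adjusted p under 0.05. MYOG, TCF12 and VAMP3 are filled, and the interval of MYOD1 spans 0.

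In the order of levels with si-SCR, MYOG came first at a mean of 168 FPKM, followed by MYOD1 (102 FPKM), TCF12 (34.8 FPKM), MEF2A (12.3 FPKM), SIX4 (7.46 FPKM), MEF2D (6.65 FPKM) and MEF2C (2.71 FPKM). With si-circVAMP3 the order was MYOD1 (116 FPKM), MYOG (98.6 FPKM), TCF12 (30.4 FPKM), MEF2A (11.2 FPKM), SIX4 (7.3 FPKM), MEF2D (6.16 FPKM) and MEF2C (2.1 FPKM). No neighbours in either order overlapped in their ranges over the libraries of the group.

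Among 11093 genes with a mean of at least 1 FPKM, those whose pattern over the 5 libraries was most like that of MYOG were SLC24A3, a sodium, potassium and calcium exchanger gene, CHAC1, a glutathione-degrading enzyme gene, and PEX10, a peroxisome biogenesis gene. Their root mean square differences from MYOG in centred log2 level were 0.033, 0.034 and 0.042. SLC24A3, for example, was at 1.8, 1.83 and 1.59 FPKM with si-SCR and at 1.003 and 0.999 FPKM with si-circVAMP3. For MYOD1 the nearest were SF3A2, PTP4A3 and ATAD3A, at 0.023, 0.026 and 0.031, and like MYOD1 none of them passed the test. SF3A2, a splicing factor gene, was at 20.6, 18.6 and 14.6 FPKM with si-SCR and at 19.2 and 22.9 FPKM with si-circVAMP3, lowest in si-SCR 3 as MYOD1 was.

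The genes around these factors were taken from 5 lists, which were chosen with earlier results of these data known. Each is read beside the 27.5% of all genes tested that passed and the median of 0.003 over all of them. The shares are given as a description. Of the dimer partners and inhibitors (TCF3, TCF4 and the ID genes), 5 of 6 had a row, ID4 having none, and 4 of the 5 passed (80.0%, median log2 difference 0.60). ID proteins lack a DNA-binding region and hold E proteins in inactive pairs. ID3, the most abundant of them, was at 80.3, 86.9 and 65.0 FPKM in si-SCR 1, 2 and 3 and at 133 and 148 FPKM in si-circVAMP3 1 and 2. Both si-circVAMP3 libraries were well above all controls, and ID3 rose by 0.87 on the log2 scale (SE 0.12, adjusted p = 0.0038).

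ID1 was at 19.1, 17.9 and 13.1 FPKM with si-SCR and at 21.7 and 31.1 FPKM with si-circVAMP3 (log2 difference 0.65, SE 0.195, adjusted p = 0.048). ID2 was at 1.22, 1.08 and 1.07 FPKM with si-SCR and at 1.68 and 1.82 FPKM with si-circVAMP3 (log2 difference 0.60, SE 0.107, adjusted p = 0.0088). Neither gene's groups overlapped, both being higher with si-circVAMP3. The E protein gene TCF4 fell, from 2.04, 2.22 and 2.31 FPKM with si-SCR to 1.44 and 1.32 FPKM with si-circVAMP3 (log2 difference -0.63, SE 0.098, adjusted p = 0.0058). TCF3, the most abundant E protein gene beside TCF12, was at 37.1, 33.4 and 26.4 FPKM with si-SCR and at 33.8 and 35.3 FPKM with si-circVAMP3. Its groups overlapped and it did not pass, with a log2 difference of 0.11 (adjusted p = 0.57) that was -0.03 (0.76) without si-SCR 3, its lowest library.

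The ID calls depended on single libraries to different degrees. Leaving out si-SCR 2, si-SCR 3, si-circVAMP3 1 or si-circVAMP3 2 ended the call of ID1, with adjusted p of 0.088, 0.055, 0.053 and 0.27 and log2 differences of 0.71, 0.49, 0.91 and 0.40. The ID1 call was also lost with eBayes without trend (0.094), with robust eBayes (0.066) and with libraries scaled to the same sum (0.053). ID2 lost its call without si-circVAMP3 1 (0.052) or 2 (0.076), and TCF4 without si-circVAMP3 2 (0.054), while ID3 kept it each time. Summed, ID1, ID2 and ID3 gave 101, 106 and 79.2 FPKM with si-SCR and 156 and 181 FPKM with si-circVAMP3, against 73.4, 70.0 and 64.4 FPKM and 66.8 and 65.8 FPKM for TCF3, TCF4 and TCF12 together. The ratio of the ID sum to the E protein sum was chosen after the values were seen. It was 1.37, 1.51 and 1.23 in the controls and 2.34 and 2.75 with si-circVAMP3. The E protein sums of the groups overlapped (log2 difference -0.06), while the ID sum, mostly ID3, was higher with si-circVAMP3 (0.83). An exact two-sided permutation test of the ratio gave p = 0.2, the smallest value that 3 against 2 libraries can give.

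Of the upstream factors (among them SIX2, SIX5, FOXO1 and the EYA, DACH, PAX and PITX genes), 12 of 13 had a row, PAX7 having none. Of these, 2 fell, 1 rose and 9 did not pass (25.0% passing, median log2 difference -0.04). EYA2, a phosphatase and coactivator that works with SIX4 and its relatives, was at 11.9, 12.7 and 12.9 FPKM in si-SCR 1, 2 and 3 and at 6.29 and 6.12 FPKM in si-circVAMP3 1 and 2. The libraries of each group lay close together and far from the other group, and EYA2 fell by 1.00 (SE 0.057, adjusted p = 0.0002), to 50.2% of the control level. Its relative EYA3 rose by 0.26 (SE 0.055, adjusted p = 0.016).

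FOXO1 fell by 0.28 (SE 0.068, adjusted p = 0.026), from 7.12, 7.65 and 7.87 FPKM with si-SCR to 6.01 and 6.41 FPKM with si-circVAMP3. Reads of the PAX3-FOXO1 fusion, known in this line, and of unfused FOXO1 cannot be told apart in this row. PITX3, the most abundant gene of the list, ranged from 18.6 to 34.8 FPKM among the controls alone and did not pass (log2 difference 0.12, adjusted p = 0.75). Its direction turned on single libraries, the difference being -0.13 without si-SCR 3 and -0.05 without si-circVAMP3 2. FOXO1 and EYA3 lost their calls without si-SCR 2 (adjusted p of 0.087 and 0.058), si-circVAMP3 1 (0.16 and 0.087) or si-circVAMP3 2 (0.082 and 0.11), and EYA2 kept its call each time.

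Coactivators and upstream kinases had 15 of 16 genes in the table, MAP2K6 having no row. Of these, 5 fell, 1 rose and 9 did not pass (40.0% passing, median log2 difference 0.00). VGLL2, a muscle cofactor of TEAD and MEF2 proteins, was at 5.02, 4.23 and 3.27 FPKM with si-SCR and at 2.01 and 2.52 FPKM with si-circVAMP3, and fell by 0.84 (SE 0.183, adjusted p = 0.017). The acetyltransferase gene KAT2B fell by 0.41 (SE 0.076, adjusted p = 0.01), and MAML1, a Notch coactivator that can also act with MEF2C, rose by 0.47 (SE 0.078, adjusted p = 0.0069). Smaller falls were seen in MAP2K3, a kinase upstream of p38 (-0.34, adjusted p = 0.011), SMARCD3, a chromatin remodelling subunit (-0.33, 0.014), and CARM1, an arginine methyltransferase (-0.26, 0.022).

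The arginine methyltransferase gene PRMT5, the most abundant of these, was at 67.8 to 69.9 FPKM with si-SCR and at 79.7 and 72.1 FPKM with si-circVAMP3, which did not pass (adjusted p = 0.08). Calls of this list were lost in several fits with 1 library left out. Calls over all genes also became far fewer with si-circVAMP3 1 or si-circVAMP3 2 left out, so such losses were not particular to this list. Without si-circVAMP3 1, 1 of the 6 calls was kept, that of MAP2K3, with adjusted p from 0.059 to 0.14 for the others. Without si-circVAMP3 2, 2 were kept, MAML1 and SMARCD3, with 0.055 to 0.089 for the others. Without si-SCR 2, CARM1 (0.076) and VGLL2 (0.06) lost theirs, and without si-SCR 1 CARM1 did (0.055). CARM1 also lost its call with eBayes without trend (0.057).

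Repressors had 20 of 22 genes in the table, TWIST2 and BHLHE41 having no row, and 19 were tested since HDAC9 was below the filter at a mean of 0.0336 FPKM. Of the 19, 3 fell, 2 rose and 14 did not pass (26.3% passing, median log2 difference 0.05). HEYL, a Notch target that represses muscle genes, was at 30.3, 30.6 and 28.3 FPKM with si-SCR and at 17.9 and 15.8 FPKM with si-circVAMP3, and fell by 0.82 (SE 0.067, adjusted p = 0.0007). HDAC5, a class IIa deacetylase that binds MEF2 proteins, was at 18.7, 18.5 and 16.6 FPKM with si-SCR and at 10.9 FPKM in both si-circVAMP3 libraries, and fell by 0.72 (SE 0.064, adjusted p = 0.00087). The zinc finger gene ZEB2 fell by 0.41 (SE 0.057, adjusted p = 0.0036).

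HDAC1, a class I deacetylase, and SNAI2, which can occupy E-boxes of muscle genes, moved the other way. HDAC1 rose by 0.28 (SE 0.046, adjusted p = 0.0068) and SNAI2 by 0.35 (SE 0.072, adjusted p = 0.014). Both lost the call without si-circVAMP3 1 (adjusted p of 0.06 and 0.054) or si-circVAMP3 2 (0.052 and 0.11), whereas HEYL, HDAC5 and ZEB2 kept theirs in each such fit. MDFI, an inhibitor of MRF proteins and the most abundant of the list, ranged from 72.6 to 92.9 FPKM over all libraries and did not pass (log2 difference 0.10, adjusted p = 0.49). Without si-SCR 3 its difference was 0.00. Without that library 3 repressors fell and 3 rose, where 2052 of all 13685 genes tested passed as lower and 1962 as higher. The added repressor, BHLHE40, had an adjusted p of 0.051 with all libraries and was singled out after its value was seen.

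Muscle genes known as targets of these factors had 29 of 32 genes in the table, CKM, ACTA1 and UNC45B having no row. Of the 29, 10 fell, 1 rose and 18 did not pass (37.9% passing). The median log2 difference of the list was -0.19. A negative value was found in 21 of its 29 genes, against 6777 of all 13681 genes tested. ACTC1, the cardiac alpha-actin of embryonic muscle, was at 313, 355 and 313 FPKM in si-SCR 1, 2 and 3 and at 169 and 175 FPKM in si-circVAMP3 1 and 2. The groups were far apart, and ACTC1 fell by 0.92 (SE 0.065, adjusted p = 0.0004).

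SMYD1, a methyltransferase of the sarcomere, fell by 0.83 (SE 0.081, adjusted p = 0.0012) and TTN, which encodes titin, by 0.79 (SE 0.152, adjusted p = 0.012). KLHL41, which stabilises thin filaments, was at 40.5, 38.8 and 33.0 FPKM with si-SCR and at 24.9 and 22.8 FPKM with si-circVAMP3, and fell by 0.64 (SE 0.091, adjusted p = 0.0041). CHRNG, the fetal subunit of the muscle acetylcholine receptor, fell by 0.61 (SE 0.052, adjusted p = 0.00076). TNNC2, the troponin C of fast muscle, rose instead, from 2.39, 1.56 and 1.18 FPKM with si-SCR to 3.19 and 3.03 FPKM with si-circVAMP3 (log2 difference 0.88, SE 0.252, adjusted p = 0.042). The other 5 genes that passed, listed after their values were seen, were MYMX, MYL4, TNNT2, CHRND and CHRNB1, all lower, with log2 differences from -0.60 to -0.23.

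DES, the muscle gene with the highest mean over all 5 libraries, though below ACTC1 in every control, was at 291, 291 and 249 FPKM with si-SCR and at 266 and 248 FPKM with si-circVAMP3. Its groups overlapped through si-SCR 3, and it passed without that library (log2 difference -0.18, adjusted p = 0.031) but not with it (-0.11, 0.35). Without si-SCR 3, 13 muscle genes were lower and 1 higher, where 2052 of all 13685 genes tested passed as lower and 1962 as higher. TNNC2 lost its call without si-SCR 2 (0.11), si-circVAMP3 1 (0.18) or si-circVAMP3 2 (0.15), as well as with eBayes without trend (0.078) and robust eBayes (0.057), and TTN lost its call without si-circVAMP3 2 (0.085). Of the 5 genes listed after their values were seen, TNNT2, CHRNB1 and CHRND also lost calls with 1 library left out, each of them without si-circVAMP3 2. TNNT2 passed with all libraries (adjusted p = 0.033) and not without si-SCR 3 (0.055). CHRNB1 passed in the main fit (adjusted p = 0.029) and not with eBayes without trend (0.078). ACTC1, SMYD1, KLHL41 and CHRNG kept theirs with any single library left out. With si-circVAMP3 1 or si-circVAMP3 2 left out fewer genes of the list passed as lower, as was so over all genes tested.

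**Figure D4:**
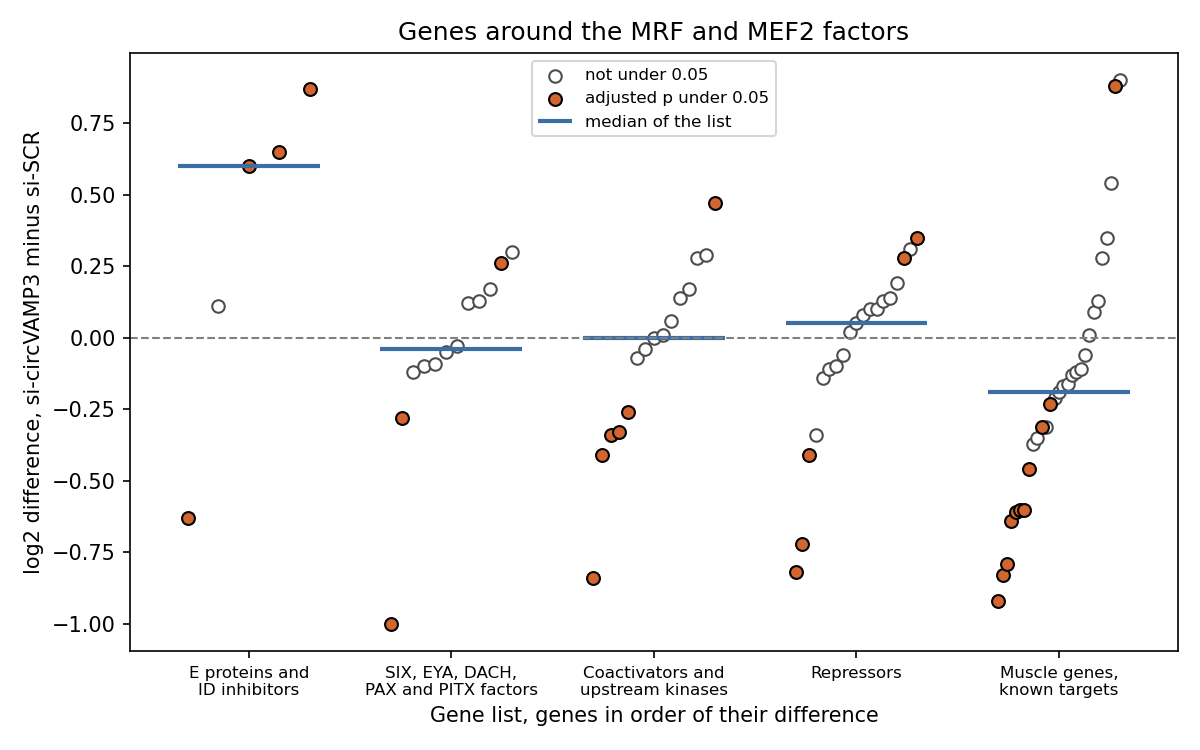
Log2 difference between si-circVAMP3 and si-SCR for each tested gene of the 5 lists, in rising order within a list; filled points have an adjusted p under 0.05 and blue lines are list medians. In the first list ID1, ID2 and ID3 lie above 0 and TCF4 below it, with a list median of 0.60, and the muscle genes lie mostly below it, with a median of -0.19.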

How the data were processed

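Poly-A+ RNA of 5 RH4 libraries was sequenced as paired ends with a stranded kit. The authors trimmed reads with Trimmomatic, aligned them with STAR 2.5.2b to GRCh38 with the Ensembl annotation, counted gene reads by strand with htseq-count, removed genes with few reads and deposited FPKM values made with edgeR. Whether their library sizes were rescaled is not given in the sources used here. Of 13822 gene IDs, 13783 had a symbol.

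FPKM ratios between libraries were whole-number ratios, and read counts were recovered for 13784 genes (99.7%, relative tolerance 2e-13). Groups were compared with limma 3.58.1 in R 4.3.3 (lmFit, eBayes with trend) on log2(FPKM + 0.1) for 13681 genes with a mean of at least 0.1 FPKM, which understates changes of low genes. P-values were adjusted by Benjamini-Hochberg over all of them and called under 0.05. The fit was tested on simulated data. The study's count model was not run on the recovered reads, to which limma voom was fitted as an added alternative.

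The genes and lists were chosen with earlier results of these data known. Named from each list were the genes past the threshold, up to the 6 largest differences, and the most abundant gene. TCF3, which did not pass, was described outside this rule. Some listed genes are not reported here by name. For MYOG and MYOD1 the 3 genes nearest in centred log2 level were named. Gene positions came from the Gencode annotation of GRCh38. Alternatives covered pseudocount, filter, scaling, moderation, a replicate block and each library left out.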

Additional observations from a re-analysis of the deposited data

How the results depend on the processing

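MYOG, ID3, EYA2, HEYL, HDAC5, ZEB2, ACTC1, SMYD1, KLHL41 and CHRNG passed the test in all 16 other settings, and none of the 27 called genes named by the rule changed direction in a setting that tested it (TTN was below the filter of a mean of at least 1 FPKM). The number of the 7 genes past the threshold was 2 and ranged from 1 to 3 with 1 library left out. It was 1 with eBayes without trend, 1 with the replicate block and 1 when a log2 difference over 0.58 was also asked for, the gene then being MYOG. It was 3 with a mean of at least 1 FPKM, with robust eBayes and with libraries scaled to the same sum, MEF2C being added. Over all genes the count was 3767, ranged from 1267 to 4014 with 1 library left out and was 793 with the fold rule. Of the genes on the 5 lists, 29 passed, and 14 to 32 did with 1 library left out. The fewest calls, 1277 and 1267, came without si-circVAMP3 1 and without si-circVAMP3 2, where limma takes the library that is left to vary like the controls.

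Replicate numbers 1 and 2 occur in both groups, but nothing says that they mark shared cultures. Deviations from the group means correlated at -0.15 for number 1 and -0.04 for number 2. With the replicate block 2868 genes passed, 1 of the 7 genes and 28 list genes, and the median log2 difference of the 7 genes was -0.14. Since si-SCR 3 has no partner, this fit takes its differences from the other 4 libraries, so it combines the block with the loss of si-SCR 3, without which 4014 genes passed. Among named genes TCF12 (adjusted p = 0.067), ID1 (0.079), FOXO1 (0.052), CHRNB1 (0.061) and TNNT2 (0.067) lost their calls with the block.

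A limma voom fit to the recovered reads, chosen after seeing the data, called 4207 genes, 3 of the 7 (MYOG, MEF2C and TCF12) and 35 list genes. All p-values rest on 3 and 2 libraries of a single line.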
